A study of Mus musculus with 69 samples.

Results

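Hippocampal RNA of 7 adult male mice that lacked Cdh13 and had been separated from the dam as pups was set against that of 7 wildtype mice from handled, undisturbed litters. This comparison, called the double hit here because both the genotype and the rearing differ, used 14 of the 69 samples of the series, chosen by their labelled genotype, rearing and age. The separated knockout animals (genotype knockout, environment separated, age P66) had spent 3 h of each day between P1 and P14 away from the dam, at times that varied within the light phase. The control wildtype animals (genotype wildtype, environment control, age P66) were handled over the same days and otherwise stayed in the nest. All were weaned at P22 and left until P66, and each sample is 1 animal. The 7 control knockout and 10 separated wildtype animals of the same age, each with 1 of the hits, entered the same fit and are given beside the double hit. The labels name neither litters nor the time of day at which the brains were taken. Separation was applied to whole litters and the test treats the animals as independent, which overstates the evidence where litters are alike.

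Cdh13 encodes T-cadherin, a cadherin held at the membrane by a lipid anchor and without the cytoplasmic tail of classical cadherins. It takes part in axon growth and synapse formation and also binds adiponectin. Repeated separation of rodent pups from the dam is a widely used model of early-life stress. Hspa5 and other chaperones and disulfide isomerases fold proteins in the endoplasmic reticulum, and their genes are induced by the unfolded-protein response. The molecular clock is a transcription loop in which Arntl (Bmal1) and Clock drive their own repressors and output genes such as Ciart and Dbp.

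The double hit showed no called gene in the adult hippocampus, and chaperones such as Hspa5, lower with the knockout alone and higher with separation alone on average, had a median between those of the groups with 1 hit. Hspa5, which encodes the Hsp70 protein of the endoplasmic reticulum, lay at 411 to 645 counts per M counts (CPM; M, mega) with a median of 535 in separated knockout animals, and at 442 to 683 CPM with a median of 512 in control wildtype animals. The groups overlapped over most of their range, and the fold was 1.01 (95% interval 0.848 to 1.19, n = 7 each). Against the same control wildtype animals, Hspa5 had a log2 fold change of -0.36 ± 0.117 in control knockout and 0.53 ± 0.109 in separated wildtype animals (SE). Across all genes, 0 of 7001 tested passed edgeR's quasi-likelihood test in the double hit at a Benjamini-Hochberg adjusted p under 0.05. The same test called 0 genes for the knockout alone and 0 for separation alone (smallest adjusted p 0.194 and 0.216).

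The library totals of the 14 animals lay between 12.3 and 16.4 M counts. These are sums over the genes held, all on chromosomes 1 to 7 or early on 8, and no level of Cdh13 was analysed here to check the genotype. Markers of hippocampal tissue were present: Prox1, C1ql2 and C1ql3 of the dentate gyrus summed to 480 to 853 CPM in separated knockout and 604 to 799 CPM in control wildtype animals, and the neuron markers Snap25 and Slc17a7 to 6650 to 8086 CPM in separated knockout and 6552 to 8221 CPM in control wildtype animals. The cohorts were uneven, with 5 animals of cohort 1 and 2 of cohort 2 among separated knockout animals and 3 and 4 among control wildtype animals. Cohort was therefore a term of the fit. The separated knockout library C1-56 stood apart on the first principal component of the 14 libraries (score -35.7, against -8.49 to 9.52 for the other 13), which held 31.5% of the variance. Its genes deviated from the median of the 14 libraries with an SD of 0.46 on the log2 scale, against 0.20 to 0.25 in the others. The 1750 genes of longest genomic span deviated in it by a median of -0.22 and the 1751 of shortest span by 0.15 (log2), and list results are therefore given with and without it.

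No gene passed the test for the double hit (percent called 0%), and the smallest adjusted p was 0.836. An unadjusted p under 0.05 was reached by 376 genes (5.37%), beside 350 that chance alone gives on average, 180 of them higher (2.57%) and 196 lower (2.8%) in separated knockout animals. DESeq2 gave 0 calls and 401 such genes, and limma-voom 0 and 391. The 14 libraries fitted alone gave 0 calls and 194 such genes of 6858, beside 343 that chance alone gives on average. The median absolute log2 fold change over all genes was 0.06, and 75 genes lay past 1.5-fold in either direction. The genes described next are the 5 with the smallest p in each direction among genes with a mean of at least 1 CPM, and none of them passed the test. All 10 kept their direction within each cohort and when any of the 14 libraries was left out. They were picked by their p in these same animals, so that they keep their direction is no support.

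Kcnq1 encodes a voltage-gated potassium channel (chromosome 7, 143106362 to 143427042, GRCm38). It had 1.70, 2.01 and 3.93 CPM (lowest, median and highest) in separated knockout animals, against 0.848, 1.22 and 2.06 CPM in control wildtype animals. All 7 separated knockout animals lay above the control median, 1 of them, C2-53, well above the rest, and the groups overlapped. The log2 fold change was 0.76 ± 0.191 (SE, unadjusted p = 0.000375, adjusted p = 0.836 by edgeR's quasi-likelihood test). Klk10, a secreted serine protease of the kallikrein family (chromosome 7, 43781035 to 43785410), had 1.91, 3.37 and 4.81 CPM in separated knockout animals, against 0.642, 1.90 and 2.77 CPM in control wildtype animals. Its log2 fold change of 0.95 ± 0.266 (adjusted p = 0.836, edgeR) rested on 25 to 68 reads in separated knockout and 8 to 36 reads in control wildtype animals, and 6 of the 7 separated knockout animals lay above every control wildtype animal.

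Vrk3, a member of the vaccinia-related kinase family (chromosome 7, 44748413 to 44777515), showed a small difference with little spread. Its levels were 65.8, 69.2 and 78.6 CPM in separated knockout and 59.5, 62.2 and 65.2 CPM in control wildtype animals. The groups did not overlap, and the log2 fold change was 0.16 ± 0.0422 (adjusted p = 0.836, edgeR). Its gene overlaps Zfp473 on the other strand, and whether counting used the strand is not given in the sources used here. Genes of which every separated knockout animal exceeded every control wildtype animal made up 0.0286% of those tested. Brinp2, a neuronal gene of a family induced by bone morphogenetic protein and retinoic acid, had 227, 255 and 295 CPM in separated knockout and 208, 222 and 248 CPM in control wildtype animals, overlapping groups with a log2 fold change of 0.20 ± 0.0577. Gm45213, a predicted gene, had 31.9, 34.1 and 42.2 CPM in separated knockout and 28.7, 29.5 and 34.8 CPM in control wildtype animals (0.22 ± 0.0589). It lies over Pcsk6 and Snrpa1 on the same strand, so its reads are uncertain.

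Among the lower genes, Rrp15, a factor of ribosomal RNA processing (chromosome 1, 186720978 to 186749358), had the smallest p of all 7001 genes. It had 21.3, 23.1 and 25.4 CPM in separated knockout animals and 24.8, 26.9 and 31.1 CPM in control wildtype animals. All 7 separated knockout animals lay below the control median, and the ranges overlapped at their edges. The log2 fold change was -0.26 ± 0.0598 (unadjusted p = 0.000176, adjusted p = 0.836, edgeR), with -0.32 in cohort 1 and -0.16 in cohort 2. Tubgcp3, a subunit of the γ-tubulin complex that nucleates microtubules (chromosome 8, 12614277 to 12672248), had 111, 117 and 122 CPM in separated knockout and 125, 128 and 130 CPM in control wildtype animals. It was the 1 gene of 7001 (0.0143%) of which every separated knockout animal lay below every control wildtype animal, and its log2 fold change was -0.14 ± 0.0338. With 7 and 7 animals, some of 7001 genes can separate fully by chance alone. That share was not computed, so the lack of overlap in Tubgcp3 and Vrk3 is a description.

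Klhl20, a substrate adaptor of the Cul3 ubiquitin ligase, had 44.3, 50.7 and 53.8 CPM in separated knockout and 53.6, 55.2 and 58.7 CPM in control wildtype animals (log2 fold change -0.14 ± 0.0407). The separated knockout animal C1-58 lay just above the 2 lowest control wildtype animals. Tlr5, the innate receptor of bacterial flagellin, had 0.920, 1.15 and 1.29 CPM in separated knockout and 1.03, 1.77 and 2.06 CPM in control wildtype animals (-0.66 ± 0.184). One control wildtype animal, C2-84, lay within the range of the separated knockout animals, and each value came from 12 to 27 reads. Slc26a7, an anion transporter, had 0.278, 0.637 and 0.868 CPM in separated knockout and 0.411, 1.1 and 3.93 CPM in control wildtype animals (-1.33 ± 0.383). It rested on 4 to 12 reads in separated knockout animals, and its log2 fold change was -0.54 in cohort 1 and -1.69 in cohort 2.

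**Figure D1:**
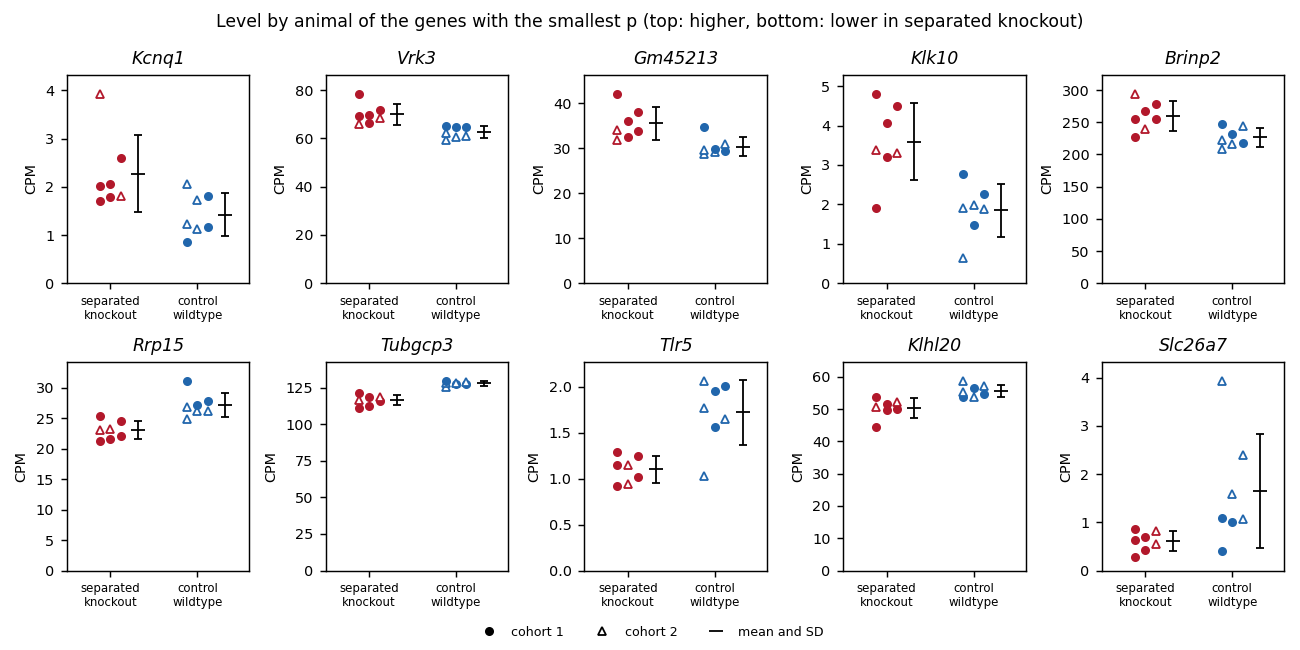
Level (CPM) of the 10 genes with the smallest p in either direction, for each of the 7 separated knockout animals (left) and 7 control wildtype animals (right) of each panel. Filled circles are cohort 1, open triangles cohort 2, and the bar gives the mean and SD. Tubgcp3 and Vrk3 are the genes whose groups do not overlap.

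Chaperone genes lay in opposite directions in the groups with 1 hit. By construction of the linear fit, the double hit of a gene equals the sum of its knockout and separation effects, each averaged over the other factor. The averaged knockout effect was called in 5 of 7001 genes (0.0714%) and the averaged separation effect in 26 (0.371%). Hspa5, Pdia3 and Hsph1 were called in both, lower with the knockout and higher with separation. Where a gene's double hit is near 0, as in these genes, the averaged effects mirror each other, so the calls are not separate results. In cohort 1 alone the averaged knockout effect had 0 calls, with 97 genes at an unadjusted p under 0.05, and in cohort 2 alone it had 93 calls, while averaged separation had 0 and 2. With a library of either group left out the knockout calls numbered 3 to 6 and the separation calls 3 to 74, with 3 without control wildtype C1-6, 8 without separated knockout C1-56, 69 without separated knockout C2-53 and 74 without separated knockout C2-84. The contrasts share animals and these genes were chosen after their values were seen, so their double hit is given as a description. Pdia3, a disulfide isomerase of glycoprotein folding, had 390, 415 and 465 CPM in separated knockout and 405, 437 and 489 CPM in control wildtype animals. Its log2 fold change was -0.04 ± 0.0606 (95% interval -0.16 to 0.09), beside -0.23 ± 0.0592 in control knockout and 0.22 ± 0.0552 in separated wildtype animals. Hsph1, a cytosolic chaperone that serves Hsp70 proteins as a nucleotide exchange factor, had 726, 805 and 916 CPM in separated knockout and 723, 825 and 878 CPM in control wildtype animals. The groups of both genes overlapped over nearly their whole range, and the interval of Hsph1 ran from -0.11 to 0.11 around -0.0028 (log2), beside -0.24 ± 0.0524 and 0.12 ± 0.0488 for the knockout and for separation.

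Promoters of Hspa5, Hsph1 and the clock gene Ciart are shown because known elements of the unfolded-protein, heat-shock and clock pathways were found in them. Other chaperone and clock genes, named below, held none. Promoter windows (250 bases before to 50 after the annotated start, RefSeq, GRCm38.p6) were found for 17 of 19 genes looked up, in 23 windows, and 4 genes held a motif. The Hspa5 window is chr2:34771840-34772139, plus strand, and its capitals mark the endoplasmic reticulum stress element, searched on both strands and found here as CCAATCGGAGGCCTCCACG, which begins 65 bases before the start.
Hspa5: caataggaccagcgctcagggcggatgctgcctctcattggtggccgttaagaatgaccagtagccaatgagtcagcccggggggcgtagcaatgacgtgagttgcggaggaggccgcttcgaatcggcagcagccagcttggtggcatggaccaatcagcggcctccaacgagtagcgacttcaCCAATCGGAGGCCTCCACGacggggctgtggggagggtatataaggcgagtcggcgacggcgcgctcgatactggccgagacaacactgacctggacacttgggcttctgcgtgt
The Hsph1 window is chr5:149636287-149636586, minus strand, and its capitals mark an E-box, CACGTG, and a heat-shock element of 3 alternating repeats, searched on both strands and found here as TTCTGGAAAGTTC. The heat-shock element begins 36 bases after the start. Hsph1 has a second window, not shown, of another annotated start. There the same heat-shock element begins 15 bases after the start and the E-box 19 bases before the start.
Hsph1: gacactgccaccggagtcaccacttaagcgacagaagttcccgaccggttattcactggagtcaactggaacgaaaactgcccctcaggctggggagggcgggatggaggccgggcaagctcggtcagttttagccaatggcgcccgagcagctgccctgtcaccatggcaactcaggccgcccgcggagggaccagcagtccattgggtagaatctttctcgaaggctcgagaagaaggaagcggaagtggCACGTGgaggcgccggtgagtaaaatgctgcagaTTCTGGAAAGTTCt
The Ciart window is chr3:95882179-95882478, minus strand, and its capitals mark 3 E-boxes, the letters that Arntl and Clock bind, at 116, 58 and 44 bases before the start.
Ciart: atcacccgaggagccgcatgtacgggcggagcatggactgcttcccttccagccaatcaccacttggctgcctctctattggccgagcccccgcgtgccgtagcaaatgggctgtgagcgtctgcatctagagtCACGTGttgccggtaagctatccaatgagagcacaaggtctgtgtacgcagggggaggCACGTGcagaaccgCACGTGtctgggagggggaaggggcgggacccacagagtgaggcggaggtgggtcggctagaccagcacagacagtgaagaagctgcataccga
Of 32851 promoter windows, the stress element was in 0.119%, the heat-shock element in 0.603% and the E-box in 7.15%. Garem2 held 1 E-box. Pdia3, also called in both averaged effects, held none of the motifs searched. Nor did the chaperone genes Pdia4, Mlec, Erp44, Hspb1, Hspa4l and Dnaja1 or the clock genes Dbp and Arntl. The second endoplasmic reticulum stress element, ERSE-II (in 0.0365% of windows), the D-boxes TTATGTAA (0.938%) and TTACGTAA (0.119%) and the cAMP response elements TGACGTCA (1.79%) and TGACGTAA (0.499%) were in none of the 23 windows. A match is a description of letters, not a bound site.

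Over the whole list of chaperones and folding enzymes of the endoplasmic reticulum, 5 of 24 listed genes were held and tested, and 0 had an unadjusted p under 0.05 in the double hit. Their median log2 fold change was 0.0077, with 3 positive and 2 negative, beside -0.01 for all genes tested. The same 5 genes had a median of -0.15 in control knockout animals (5 negative) and 0.22 in separated wildtype animals (5 positive). Pdia4, a disulfide isomerase, was the member farthest from 0, with 67.3, 88.3 and 108 CPM in separated knockout and 69.6, 80.4 and 96.2 CPM in control wildtype animals (0.18 ± 0.115). Mlec, the lectin malectin, had a log2 fold change of 0.03 ± 0.0525. Summed, the list gave 1276, 1480 and 1704 CPM in separated knockout animals and 1359, 1456 and 1730 CPM in control wildtype animals, with the control knockout animals at 1095 to 1406 and the separated wildtype animals at 1522 to 2258 CPM.

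The 13 tested heat-shock proteins and chaperonins of the cytosol and mitochondria (of 35 listed) had a median log2 fold change of 0.01 in the double hit, with 8 positive, 5 negative and 0 with an unadjusted p under 0.05. Without C1-56 the median was -0.0058, and it was 0.06 in cohort 1 (11 positive) and -0.10 in cohort 2 (2 positive). In control knockout animals all 13 were negative, with a median of -0.09, and in separated wildtype animals all 13 were positive, with a median of 0.09. Hspb1, a small heat-shock protein, had -0.50 in control knockout, 0.32 in separated wildtype and -0.11 ± 0.158 in separated knockout animals (log2, each against control wildtype). The 13 regulators of the unfolded-protein and integrated stress responses showed no such opposed directions, with medians of 0.05 in the double hit, 0.01 in control knockout and 0.02 in separated wildtype animals.

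**Figure D2:**
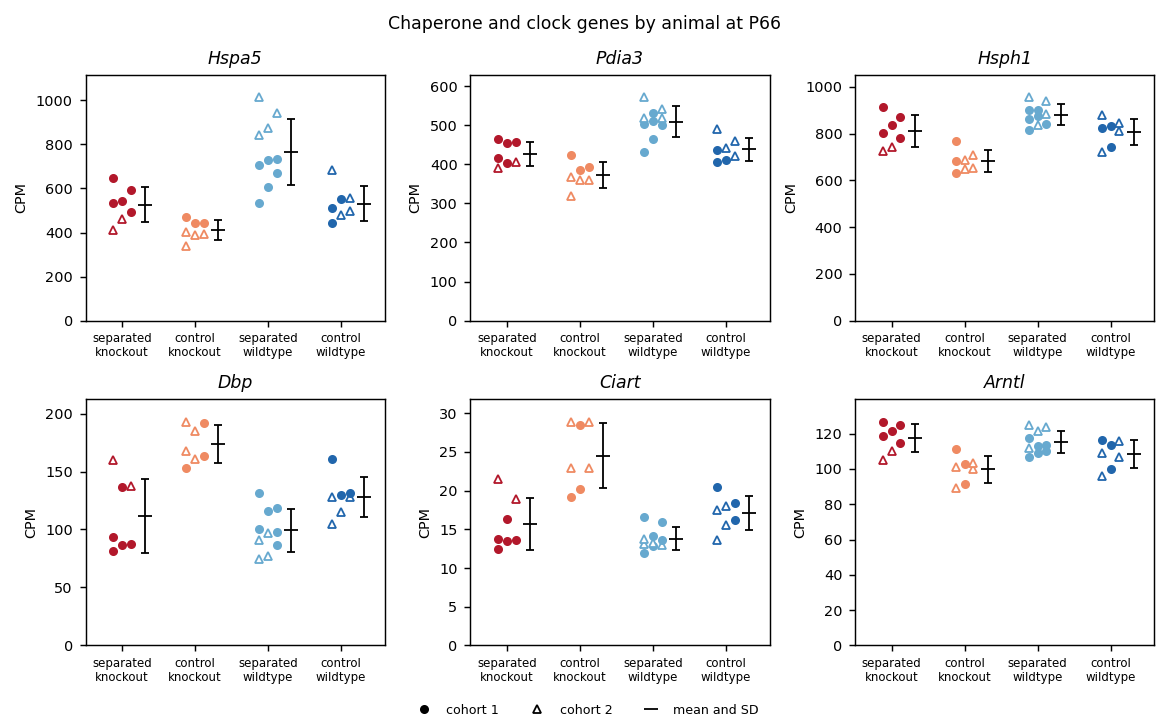
Level (CPM) by animal of the chaperones Hspa5, Pdia3 and Hsph1 and the clock genes Dbp, Ciart and Arntl in separated knockout, control knockout, separated wildtype and control wildtype animals (left to right). Filled circles are cohort 1, open triangles cohort 2, and bars give the mean and SD. The median of Hspa5 is 535 CPM in separated knockout, 401 in control knockout, 731 in separated wildtype and 512 in control wildtype animals, and the separated knockout range overlaps that of every other group.

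The double hit of Hspa5, Pdia3 and Hsph1 and the median of the endoplasmic reticulum list had opposite signs in the 2 cohorts, with 4 of the list's 5 genes positive in cohort 1 (median 0.11) and 1 of 5 in cohort 2 (median -0.13). In cohort 1, with 5 separated knockout and 3 control wildtype animals, Hspa5 had a log2 fold change of 0.17, and in cohort 2, with 2 and 4 animals, it had -0.34. Pdia3 gave 0.08 and -0.18, Hsph1 0.07 and -0.14, Pdia4 0.27 and -0.07, and Mlec 0.11 and -0.13 in cohorts 1 and 2. Erp44, a thiol protein of the early secretory pathway, ran the other way, with -0.08 and 0.08. The difference between the cohorts, tested in a fit with 1 term for each group and cohort that was added after these values were seen, was -0.51 ± 0.17 for Hspa5 (unadjusted p = 0.00565, adjusted p = 0.706, edgeR), and it passed for none of the 5 genes. The averaged knockout effect on Hspa5 was -0.19 in cohort 1 and -0.80 in cohort 2, each fitted alone.

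The clock genes Dbp and Ciart had single hits of the opposite signs, higher with the knockout alone and lower with separation alone. Over the 11 clock genes tested, 9 were positive in control knockout (median 0.13) and 6 in separated wildtype animals (median 0.0031). Dbp, an output gene of the clock, had 81.0, 93.6 and 160 CPM in separated knockout and 104, 128 and 161 CPM in control wildtype animals. The separated knockout animals fell into 4 values near the lower end, all of cohort 1, and 3 values of 137 to 160 CPM, which included both animals of cohort 2. The log2 fold change was -0.20 ± 0.137 (95% interval -0.48 to 0.08), beside 0.44 ± 0.136 in control knockout and -0.37 ± 0.126 in separated wildtype animals. Within the cohorts it was -0.53 in cohort 1 and 0.33 in cohort 2, a difference of 0.86 ± 0.214 (unadjusted p = 0.000412, adjusted p = 0.24, edgeR).

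Ciart, a repressor within the clock, had 12.4, 13.7 and 21.5 CPM in separated knockout and 13.6, 17.5 and 20.5 CPM in control wildtype animals. The groups overlapped, and the log2 fold change was -0.11 ± 0.116, beside 0.51 ± 0.114 in control knockout and -0.30 ± 0.107 in separated wildtype animals. It too differed in sign between the cohorts, with -0.40 in cohort 1 and 0.33 in cohort 2. Arntl, the activator of the loop, was the 1 clock gene of 11 tested (of 25 listed) with an unadjusted p under 0.05. It had 105, 119 and 127 CPM in separated knockout and 96.3, 109 and 116 CPM in control wildtype animals, a log2 fold change of 0.11 ± 0.0537 (unadjusted p = 0.0479, adjusted p = 0.836, edgeR). Over the 11 clock genes the median log2 fold change was -0.06, with 3 positive and 8 negative.

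**Figure D3:**
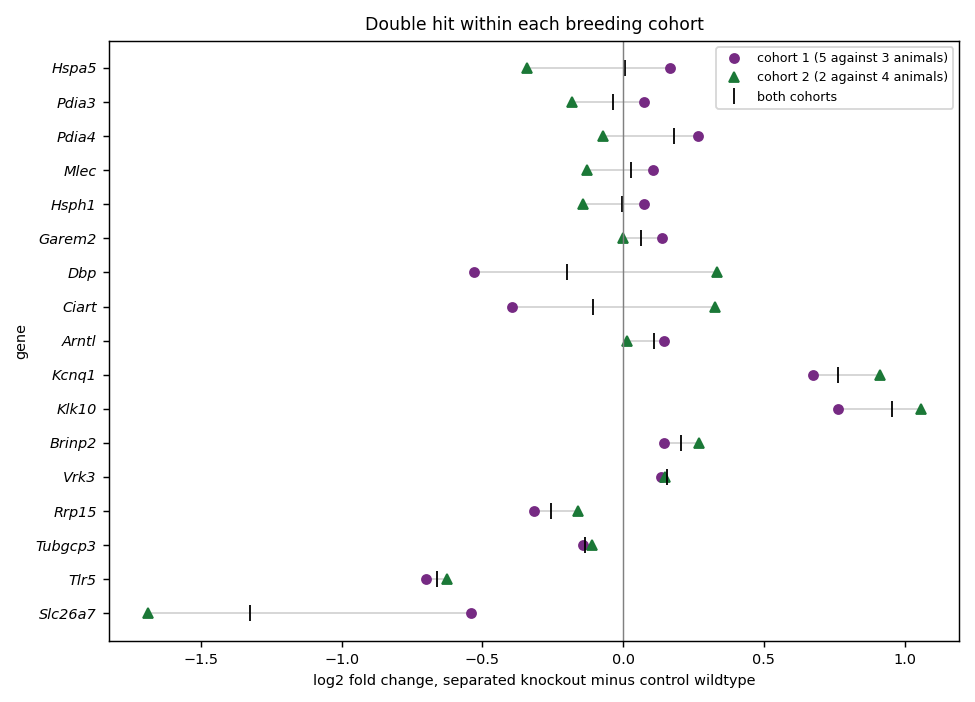
Log2 fold change of separated knockout minus control wildtype animals in cohort 1 (circles, 5 against 3 animals), cohort 2 (triangles, 2 against 4) and the fit of both (bars) for chaperones, clock genes and genes with the smallest p. Hspa5, Dbp and Ciart lie on opposite sides of 0 in the 2 cohorts, while Kcnq1, Klk10, Brinp2, Vrk3, Rrp15, Tubgcp3, Tlr5 and Slc26a7 keep their side. The latter were picked by their p in these same animals, so that they keep their side is no support.

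Tested over all genes, the double hit differed between the cohorts in 2 of 7001 genes, Inmt and Gbp3, and in 451 at an unadjusted p under 0.05. Inmt, a methyltransferase of indoleamines, had 0.991 to 2.03 CPM in separated knockout and 2.38 to 3.78 CPM in control wildtype animals of cohort 1. In cohort 2 it had 3.46 to 3.86 CPM in separated knockout and 0.803 to 1.82 CPM in control wildtype animals, so the groups did not overlap in either cohort and stood in opposite order. The difference was 2.53 ± 0.446 on the log2 scale (adjusted p = 0.0351, edgeR). Gbp3, an interferon-induced GTPase, had 6.38 to 8.25 CPM in separated knockout animals, against 8.93 to 10.9 CPM in control wildtype animals of cohort 1, and 9.60 to 12.0 CPM in separated knockout animals, against 6.0 to 7.55 CPM in control wildtype animals of cohort 2 (1.04 ± 0.196, adjusted p = 0.044, edgeR). Leaving out single libraries gave 0 to 2 such calls. Without separated knockout C1-54 or any of the control wildtype animals C1-6, C1-58, C2-58 and C2-86 there were 0.

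Other genes had a double hit on the same side as 1 of the single hits, with the other near 0. Rrp15 had a log2 fold change of 0.0036 in control knockout, -0.11 in separated wildtype and -0.26 in separated knockout animals, each against control wildtype. Fbn1, the matrix protein fibrillin-1, had 34, 38.4 and 46.9 CPM in separated knockout and 41, 48.6 and 53.9 CPM in control wildtype animals. Its log2 fold change was -0.31 ± 0.104, beside -0.34 in separated wildtype and -0.0040 in control knockout animals, and it was -0.35 in cohort 1 and -0.11 in cohort 2. In both genes the 7 separated knockout animals lay below the control wildtype median while the ranges overlapped. Rrp15 was picked by its p and Fbn1 after its values were seen, so this is a description.

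**Figure D4:**
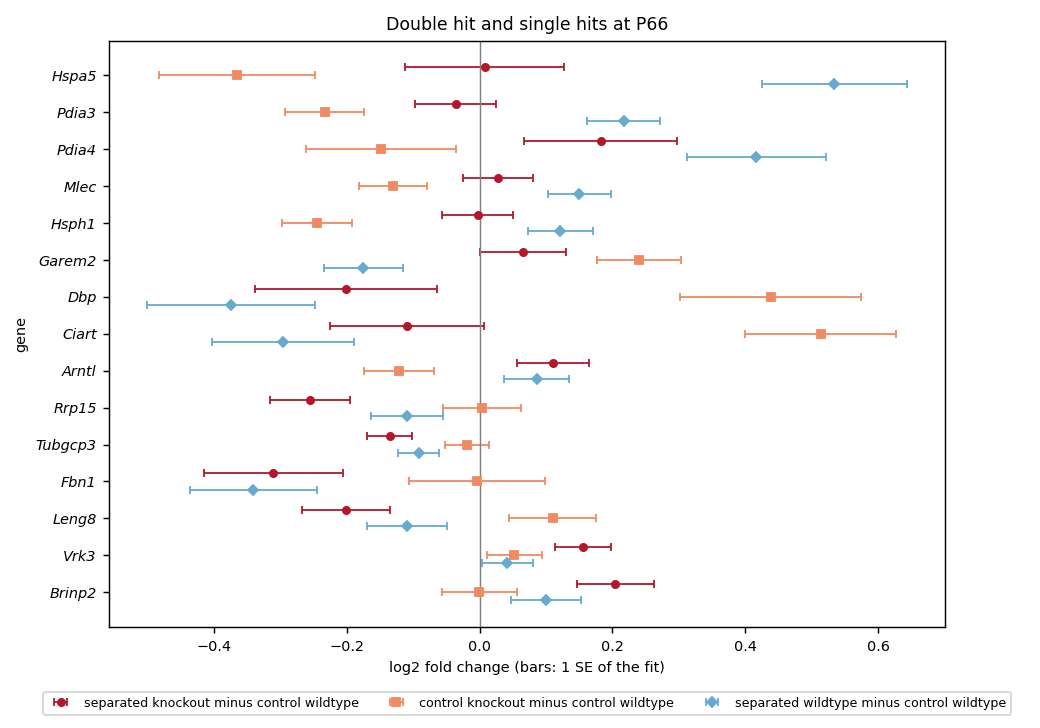
Log2 fold change (1 SE) against control wildtype animals of separated knockout (circles), control knockout (squares) and separated wildtype animals (diamonds) for 15 genes. From Hspa5 to Ciart the single hits lie on opposite sides of 0 with the double hit between them, whereas Rrp15 and Fbn1 lie on the same side as separated wildtype animals.

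The gene lists for cell types and pathways were described by counts, since no list was tested. Of the 30 lists, myelin genes had the most positive median. All 10 tested myelin and mature oligodendrocyte genes were positive, with a median of 0.22, and Gpr37, a receptor of oligodendrocytes, had an unadjusted p under 0.05 (0.26 ± 0.0884). Without the library C1-56, in which these genes deviated by a median of 0.76, the median of the list was 0.10, with 9 positive and 1 negative. It was 0.42 in cohort 1 and -0.0022 in cohort 2. Mag, a myelin-associated glycoprotein, had a log2 fold change of 0.35 ± 0.176. In bulk tissue, a lower or higher number of cells of a type and less or more RNA per cell cannot be told apart.

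The most negative medians belonged to tissue next to the hippocampus. Of 13 choroid plexus genes 12 were negative, with a median of -0.32, and none had an unadjusted p under 0.05. The list summed to 211, 278 and 1037 CPM in separated knockout and 387, 540 and 764 CPM in control wildtype animals, and by the mean log2 CPM of the list the 4 lowest separated knockout animals, C1-2, C1-3, C1-54 and C1-56, were of cohort 1. The median was -0.15 without C1-56, -0.48 in cohort 1 and 0.36 in cohort 2. Meningeal and fibroblast matrix genes, a list that includes Fbn1, had a median of -0.25 (9 of 10 negative), and ependymal genes of -0.21 (5 of 6 negative). The single hits lay on the same side. Choroid plexus genes had medians of -0.20 in control knockout and -0.37 in separated wildtype animals (12 of 13 negative in each). Ependymal genes had -0.29 and -0.47 (6 of 6 negative in each), and meningeal genes -0.14 in each (9 and 8 of 10 negative). With the choroid plexus score as a covariate the double hit still had 0 calls, and Fbn1 had -0.29. The part of these tissues in other results was not tested.

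Medians of lists of neuronal genes and of the splicing and translation machinery differed with and without C1-56. The 10 GABA receptor subunits had a median of -0.04, and 0.03 without that library. The 22 potassium and sodium channels had -0.05 and 0.01, and the 12 glutamate receptors -0.04 and 0.0016 with and without it. Serine and arginine rich splicing factors with their Clk kinases were negative in 14 of 14 genes with a median of -0.10, and in 12 of 14 with -0.04 without C1-56. Among them Leng8 had 479, 566 and 642 CPM in separated knockout and 582, 657 and 701 CPM in control wildtype animals (-0.20 ± 0.0662, and -0.17 without C1-56). Cytosolic ribosomal protein genes were positive in 33 of 34, with a median of 0.07, and in 30 of 34 with 0.02 without it, and nuclear genes of oxidative phosphorylation in 26 of 28 (0.07) and 25 of 28 (0.04). Within the cohorts the splicing list was negative in 13 of 14 genes in cohort 1 (median -0.11) and in 8 of 14 in cohort 2 (median -0.0040). The ribosomal genes were positive in 34 of 34 in cohort 1 (median 0.09) and in 9 of 34 in cohort 2 (median -0.01). The receptor and channel lists also had medians of opposite sign in cohorts 1 and 2, with -0.05 and 0.03 for GABA receptors, -0.08 and 0.05 for the channels and -0.06 and 0.0087 for glutamate receptors. In C1-56 itself the GABA receptor genes deviated by a median of -0.75, the channels by -0.47, the splicing list by -0.44 and the ribosomal genes by 0.33 from the median of the 14 libraries. The part of this library's profile in the other genes' values was not tested beyond the fits that leave it out.

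**Figure D5:**
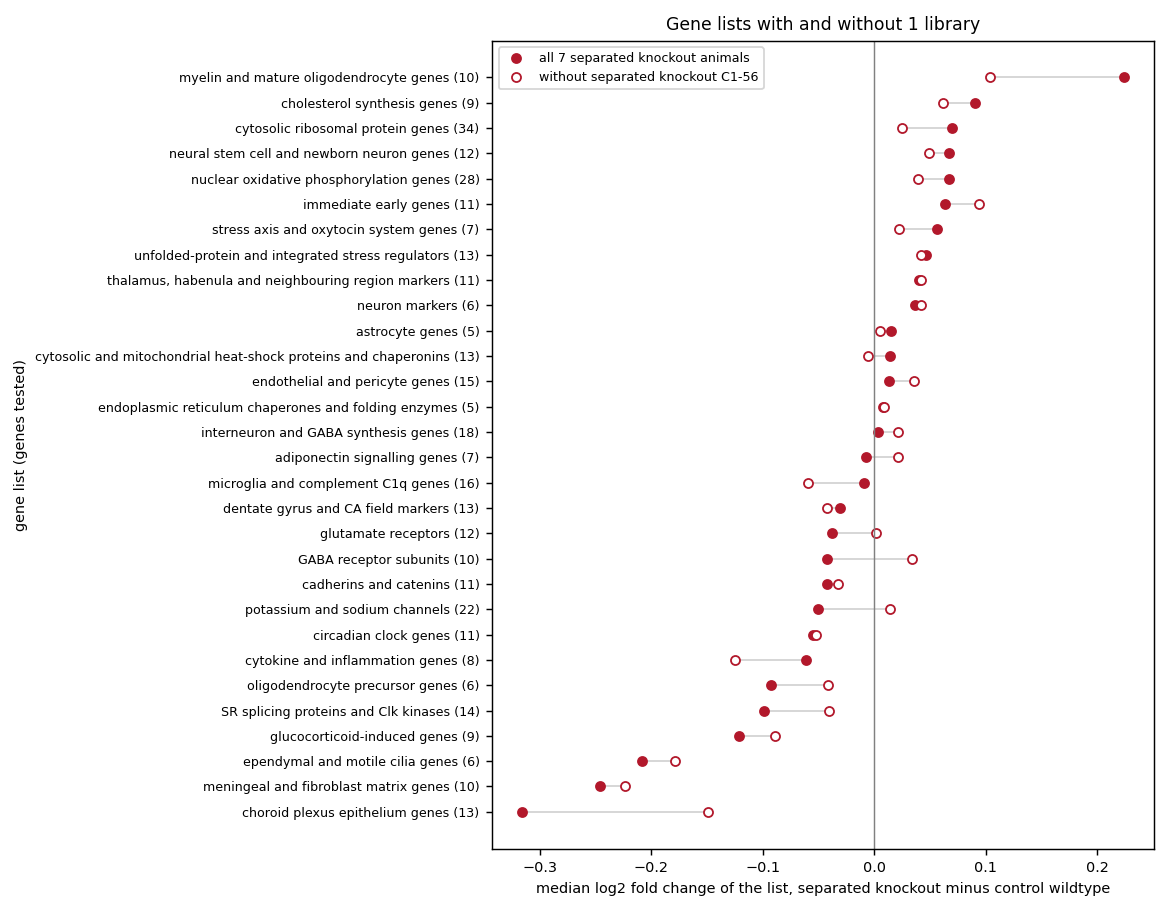
Median log2 fold change of each gene list (genes tested in brackets), separated knockout minus control wildtype, with all 7 separated knockout animals (filled) and without C1-56 (open). The myelin median is 0.22 and 0.10, the choroid plexus median -0.32 and -0.15, and the medians of channel and GABA receptor lists change sign.

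Genes of the stress response were looked at in 3 lists. Of 9 tested glucocorticoid-induced genes 3 had an unadjusted p under 0.05, all lower (background for lower genes 2.8%). Sult1a1, a sulfotransferase, had 11.4, 12.2 and 14.7 CPM in separated knockout and 11.3, 15.1 and 22.9 CPM in control wildtype animals, with a log2 fold change of -0.42 ± 0.134 that was -0.11 in cohort 1 and -0.71 in cohort 2. Hif3a, a hypoxia-inducible factor subunit, had 6.10, 9.95 and 12.4 CPM in separated knockout animals, against 8.93, 15.2 and 16.5 CPM in control wildtype animals (-0.55 ± 0.194, with -0.50 and -0.49 in cohorts 1 and 2). Lcn2, the secreted iron carrier lipocalin-2, had 0.236, 0.658 and 9.23 CPM in separated knockout animals, against 0.313, 0.792 and 22.9 CPM in control wildtype animals. Its log2 fold change of -2.96 ± 1.16 came from 3 control wildtype animals of cohort 2 with 18.8 to 22.9 CPM, and the medians of the groups were close. Within cohort 1 it was 2.30 and within cohort 2 -5.15. The list's median was -0.12, with 6 of 9 negative, and without C1-56 it was -0.09. In cohort 1 it was 0.03, with 4 of 9 negative and 0 at an unadjusted p under 0.05, and in cohort 2 it was -0.15, with 9 of 9 negative and 3 at that p.

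Of the 7 tested genes of the stress axis and oxytocin system, 5 were positive and 2 negative. Their median was 0.06, 0.02 without C1-56, 0.14 in cohort 1 and -0.04 in cohort 2. Hsd11b1, which regenerates active glucocorticoid, was the 1 member with an unadjusted p under 0.05. It had 62.4, 78.6 and 92.7 CPM in separated knockout and 56.6, 63.3 and 74.5 CPM in control wildtype animals (0.22 ± 0.0879). Of the 11 immediate early genes, which neurons induce with activity, 8 were positive with a median of 0.06, and 2 had an unadjusted p under 0.05, both higher (background 2.57%). Klf4 had 6.91, 12.1 and 14.8 CPM in separated knockout and 5.70, 8.22 and 10.2 CPM in control wildtype animals (0.46 ± 0.159), and 0.39 in separated wildtype animals alone. Nr4a3 had 184, 223 and 280 CPM in separated knockout and 181, 183 and 226 CPM in control wildtype animals (0.22 ± 0.0864). The median of the list was 0.27 in cohort 1 and -0.37 in cohort 2. Npy, an interneuron peptide, had 78.2, 85.6 and 120 CPM in separated knockout and 66.8, 79.1 and 94.5 CPM in control wildtype animals (0.20 ± 0.0808, and 0.13 without C1-56).

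Of the 11 markers of the thalamus, habenula and other neighbouring regions 3 had an unadjusted p under 0.05, all higher (background for higher genes 2.57%), while the median was 0.04. Without C1-56 the median was 0.04 and 0 of the 11 had such a p. Tnnt1, a troponin subunit, had 2.30, 7.27 and 21.5 CPM in separated knockout and 1.28, 3.21 and 9.63 CPM in control wildtype animals, with C1-56 the highest and C2-53 next to it. Its log2 fold change was 1.20 ± 0.443, and 0.87 without C1-56, in which Tnnt1 was also among the genes that weighed most on the first component. Rgs16, a regulator of G-protein signalling, had 0.44 ± 0.205 and Synpo2, an actin-binding protein, 0.25 ± 0.122, and 0.27 and 0.20 without C1-56.

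Single members of other lists lay away from 0. Cd163, the haemoglobin scavenger receptor of perivascular macrophages, had 1.15, 1.65 and 2.20 CPM in separated knockout and 1.5, 2.38 and 4.58 CPM in control wildtype animals, all 7 below the control median (-0.63 ± 0.258). B2m, the light chain of class I antigen-presenting molecules, had 114, 125 and 142 CPM in separated knockout and 107, 114 and 121 CPM in control wildtype animals (0.14 ± 0.0498), with 0.16 in each cohort. It was the 1 positive gene of the 8 cytokine and inflammation genes tested, whose median was -0.06, and -0.13 without C1-56. Vwf, von Willebrand factor of endothelium, had -0.49 ± 0.217, with 0.07 in cohort 1 and -0.72 in cohort 2. Kcna4, a potassium channel, had 61.4, 64 and 68.1 CPM in separated knockout and 65.8, 69.4 and 79.1 CPM in control wildtype animals (-0.17 ± 0.0764). Bcas1, of oligodendrocytes that begin to myelinate, had 0.30 ± 0.144 and 0.15 without C1-56, and Fdps, a synthase of the cholesterol pathway, 0.14 ± 0.0575 and 0.10. The 6 oligodendrocyte precursor genes, which include Bcas1, had 4 negative and a median of -0.09, and -0.04 without C1-56, where 0 had an unadjusted p under 0.05. Slc17a7, the vesicular glutamate transporter of excitatory neurons, had 0.12 ± 0.0551, with all 7 separated knockout animals above the control median.

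The 11 tested cadherins and catenins had a median of -0.04 with 5 positive and 6 negative, and 0 had an unadjusted p under 0.05. The 7 genes of adiponectin signalling, whose ligand T-cadherin binds, had a median of -0.0075, and 1 of them, Adipor1, a receptor, had an unadjusted p under 0.05 (0.07 ± 0.0352). The 6 neuron markers had a median of 0.04, the 5 astrocyte genes 0.02, the 16 microglia and complement genes -0.0092 and the 15 endothelial and pericyte genes 0.01.

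Set against the groups with 1 hit, the separated knockout animals gave more genes at an unadjusted p under 0.05 than against the control wildtype animals, with 0 calls in each. Separated knockout minus control knockout gave 776 genes with an unadjusted p under 0.05 (11.1%) and separated knockout minus separated wildtype 780 (11.1%), beside the 376 of the double hit. These contrasts share the separated knockout libraries, and without C1-56 the counts were 579, 416 and 270. They were 1054, 1494 and 655 without C1-54, and 1157, 1197 and 735 without C2-84. Ciart came closest to a call in the step from control knockout, with a log2 fold change of -0.62 ± 0.115 (adjusted p = 0.0515, edgeR). Hspa5 had the smallest p in the step from separated wildtype, with -0.53 ± 0.11 (adjusted p = 0.259). By DESeq2 the same steps gave 27 and 2 calls. In cohort 2 alone the step from separated wildtype gave 22 calls, and without separated knockout C2-53 the step from control knockout gave 17.

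The interaction of genotype and rearing, the part of the double hit beyond the sum of the single hits, was called in 0 genes by edgeR and by DESeq2, with 316 and 348 at an unadjusted p under 0.05. Tas1r3, a subunit of sweet and umami taste receptors, had the smallest p, with an interaction of 1.5 ± 0.333 (adjusted p = 0.636, edgeR) at levels of 0.383, 0.905 and 1.23 CPM in separated knockout and 1.08, 1.15 and 1.48 CPM in control wildtype animals. It lay at 0.267 to 0.728 CPM in control knockout and 0.292 to 1.15 CPM in separated wildtype animals. Acot11, an acyl-CoA thioesterase, followed with 0.37 ± 0.0976, and Vangl1, a planar cell polarity protein, with 0.56 ± 0.149. For Hspa5 the interaction was -0.16 with a 95% interval of -0.49 to 0.16, for Pdia3 -0.02 (-0.18 to 0.15) and for Hsph1 0.12 (-0.02 to 0.27). These intervals do not show that the hits add.

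The same comparison at P22, in 10 separated knockout and 8 control wildtype animals killed at weaning, gave 0 of 7036 calls (percent called 0%) and 244 genes at an unadjusted p under 0.05 (3.47%). The genes with the smallest p there were Trpc4, a cation channel, with a log2 fold change of -0.26 ± 0.0736, G6pd2, a glucose-6-phosphate dehydrogenase, with 0.69 ± 0.206, and Pde1a, a calmodulin-dependent phosphodiesterase, with -0.27 ± 0.08. At P66 Trpc4 had -0.16, G6pd2 0.16 and Pde1a -0.09. Among the adult genes with the smallest p, Kcnq1 had -0.09 at P22, Vrk3 0.05, Rrp15 0.03 and Tubgcp3 -0.03, closer to 0 than at P66. Genes picked by their p at either age tend to lie closer to 0 in other animals, so these values show no difference between the ages. Hspa5 had -0.0063 at P22, Pdia3 -0.02 and Dbp 0.15.

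The difference between the ages, P66 minus P22, was called in 0 of 7131 genes, with 161 at an unadjusted p under 0.05, beside 357 that chance alone gives on average, and DESeq2 gave 0 calls. Card9, an adaptor of innate immune receptors, had the smallest p, with a difference of -0.63 from a log2 fold change of -0.25 at P66 and 0.38 at P22. Ttc39a (difference -0.69) and Fgf23, a phosphate-regulating hormone (difference -1.66), followed. Fgf23 had 0.0723, 0.315 and 0.555 CPM in separated knockout and 0.392, 0.900 and 0.963 CPM in control wildtype animals at P66, a few reads per library, and its log2 fold change was -1.30 ± 0.359.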

How the data were processed

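Hippocampal RNA was sequenced from 69 male mice, and the deposited values are raw read counts per gene. The tools named per the submitters' processing notes are cutadapt 1.16, FastQC 0.11.4, limma 3.34.9 and edgeR. No aligner, counter or build is named (not given in the sources used here). Of the gene records 9930 were complete and 1 broken record was left out. 99.5% of them are in a GRCm38 annotation, 96.5% at the same position. No 2 libraries of a group agreed within sampling noise (chi-square per degree of freedom 4.48 to 88.5 over 42 pairs).

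The 31 P66 libraries were fitted in edgeR 4.0.16 (R 4.3.3) with group and cohort, after a filter on low counts (minimum count 10, total 15) and TMM scaling, by the robust quasi-likelihood test with Benjamini-Hochberg adjustment over 7001 genes. CPM are counts per M counts of the genes held, on TMM-scaled totals. Values after ± are SE unless named SD. Alternatives used DESeq2 1.42.0, limma-voom 3.58.1, other scaling and filters, single cohorts and left-out libraries. The procedure was tested on simulated data. Named genes were the 5 with the smallest p in each direction above a mean of 0 on the log2 CPM scale. The 3 with the smallest p in the interaction, the P22 contrast and the difference between ages were named too. Named list members include some at an unadjusted p under 0.05 and others, such as Pdia4, Mag and Dbp, that did not reach it. Members and lists were chosen with earlier results of these data known. Results on some genes are not reported here.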

Additional observations from a re-analysis of the deposited data

Results flagged for a closer look

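In 48 groups checked for a sample far from the rest, 4 were found, where chance gives about 1 in 20. The separated knockout library C1-56 had the highest SD of log2 deviation, 0.46, the next being 0.25, and the lowest median deviation of the 1750 genes of longest span, -0.22, the next being -0.04. Kcnq1 was highest in separated knockout C2-53 at 3.93 CPM, the next animal having 2.60 CPM. Gm45213 was highest in control wildtype C1-58 at 34.8 CPM, the next having 31.0 CPM. The double hit differed between the cohorts, cohort 2 minus cohort 1, by 2.53 (log2) for Inmt and 1.04 for Gbp3, by edgeR's quasi-likelihood test of the difference itself.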

How the results depend on the processing

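The double hit had 0 calls under each alternative run, which were DESeq2, limma-voom, RLE scaling, both filters, no cohort term, either cohort alone, the 14 libraries alone, all 69 libraries, the choroid plexus covariate, an adjusted p under 0.1 and each left-out library. Genes at an unadjusted p under 0.05 numbered 270 without separated knockout C1-56, 655 without separated knockout C1-54 and 735 without separated knockout C2-84, beside 376. They numbered 194 in the 14 libraries alone, 276 in cohort 1, 422 in cohort 2 and 314 with the choroid plexus covariate. Chance alone gives 343, 352, 355 and 350 on average in these fits. DESeq2 called 4 genes for the knockout alone, 1 for separation alone, 27 for separation among knockouts, 2 for the knockout among separated animals, 16 for the averaged knockout effect, 98 for averaged separation and 8 for the difference between cohorts. Without the cohort term separation among knockouts gave 8 calls and averaged separation 41, and without a count filter the difference between cohorts gave 1. With each library left out that difference gave 0 to 2. The cause was not tested.

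The log2 fold change of Hspa5 was -0.0029 by limma-voom, -0.015 without the cohort term, -0.34 in cohort 2 and -0.043 in the 14 libraries alone, and -0.039 to 0.093 with a library left out. That of Hsph1 was 0.00040 by DESeq2, 0.00034 with RLE scaling, 0.00079 with no filter, 0.00058 at 1 CPM, 0.0040 without the cohort term, 0.074 in cohort 1 and 0.0077 in all 69 libraries, and -0.023 to 0.035 with a library left out. Pdia3 was 0.075 in cohort 1, and in cohort 2 Pdia4 was -0.072, Mlec -0.13, Dbp 0.33, Ciart 0.33 and Garem2 -0.00090. Depth limits genes near 1 CPM, with about 10 to 50 reads a library. No paired analysis was possible because animal numbers run within cohort and rearing group, so a shared number names different animals.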
